A study of Mus musculus with 4 samples.

Results

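Heat shock and endoplasmic reticulum (ER) chaperone genes were examined in subcutaneous MC38 tumours, with 35 genes chosen by name from the 55450 features of the files: 13 cytosolic, 3 mitochondrial and 19 ER members. All 35 were found. MC38 is a mouse colon carcinoma line. The cells injected carried either a knockout of Hnrnpa2b1, which encodes an hnRNP that binds RNA (KO tumours), or the intact gene (WT tumours), and the hosts of both groups were C57BL/6J mice aged 8 weeks, injected under the skin of the left flank. There were 2 KO and 2 WT tumours. Tumours were minced and digested at body temperature with collagenases, dispase and DNase before droplet single-cell RNA sequencing, and no sorting or dead-cell removal is named in the labels. Whether the KO line is 1 clone, and what the tumour numbers 1 and 2 share, is not stated in the labels, so p-values measure the spread between these tumours.

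Chaperones bind unfolded or stressed proteins and help them to fold, to be carried or to be degraded. In the cytosol, heat and other protein damage release the factor HSF1, which binds heat shock elements and raises the inducible Hsp70, Hsp40 and small heat shock genes. In the ER, unfolded proteins engage the sensors IRE1, ATF6 and PERK; spliced XBP1 and cleaved ATF6 then raise ER chaperones, disulfide isomerases and degradation factors. Enzymatic digestion of warm tissue is known to induce the inducible heat shock genes together with immediate early genes such as Fos, Jun and Egr1, so a list of 24 such dissociation genes, none of them a member, is given beside the results.

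After filtering there were 8634 and 8765 cells in KO tumours 1 and 2, and 11333 and 10134 in WT tumours 1 and 2, from libraries of 114136609 and 132490304 unique molecular identifiers (UMIs) in KO and 153162562 and 123655955 in WT. Library pairs shared between 23 and 43 cell barcodes. Cells were clustered and named from marker genes. The epithelial markers set for tumour cells were nearly absent apart from Msln, so no cluster could be called tumour-like. Clusters low in Xist and Ptprc, named Xist-low cells, stand in that place, and Hnrnpa2b1 in them was at 359 and 325 CPM (UMIs scaled to a common library total, after TMM) in KO and 563 and 553 CPM in WT (log2 fold change -0.71, SE 0.13, edgeR adjusted p = 0.0294). The labels do not say which part of the gene the knockout removes. Xist-low cells numbered 1369 and 2665 in KO tumours and 8596 and 7077 in WT tumours, and different clusters held most of them: cluster 0, led by Gja4, Gm42679 and Nppb, held 77.1% and 75.2% of them in KO tumours and 6.33% and 7.70% in WT tumours. Their median depth was 38600 and 31570 UMIs per cell in KO and 11900 and 11700 in WT.

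Promoter windows were used to show how the compartments differ in sequence. RefSeq (GRCm38.p6) windows of 250 bases before to 50 after the start matched 28 of the 35 members; those not matched were Hspa8, Hsp90aa1, Hsp90ab1, Hsf1, Hspa9, Manf and Hyou1. A paired heat shock unit (GAA and TTC in either order, 2 bases apart, read on both strands) was present in 7 of 9 cytosolic members (Bag3, Dnaja1, Hspa1a, Hspa1b, Hspb1, Hspb8 and Hsph1), in both mitochondrial members with a window (Hspd1 and Hspe1) and in 0 of 17 ER members, against 17% of all 27025 genes with a window. The ER stress element (CCAAT and CCACG, 9 bases apart, on either strand) was present in 0 of 9 cytosolic and 7 of 17 ER members (Calr, Canx, Creld2, Dnajc3, Hsp90b1, Hspa5 and Pdia6), against 0.137% of all genes. ER stress element II (ATTGG and CCACG, 1 base apart, on either strand) was present in Dnajb11 and Herpud1, against 0.0444% of all genes. The pair is contained in the longer heat shock element of 3 alternating units at the same spacing, found in Hsph1, Hspd1 and Hspe1 and in 0.662% of all genes. In Hspd1 and Hspe1 the match is 1 shared stretch of DNA read on opposite strands, for the pair and the longer element alike. The other Hspd1 window holds none of these elements. A match is a description of letters, not of a bound site. The windows below are from genes named in the results whose window holds an element, 5′ to 3′ on the gene's strand. Heat shock pairs (first 5 windows) or ER stress elements (last 2 windows) are in capitals. Sdf2l1 and Dnajb1, also named in the results, held none of these elements in their windows. In Hspe1 the pairs overlap one another.
Hspa1a, chr17:34972107-34972406, minus strand: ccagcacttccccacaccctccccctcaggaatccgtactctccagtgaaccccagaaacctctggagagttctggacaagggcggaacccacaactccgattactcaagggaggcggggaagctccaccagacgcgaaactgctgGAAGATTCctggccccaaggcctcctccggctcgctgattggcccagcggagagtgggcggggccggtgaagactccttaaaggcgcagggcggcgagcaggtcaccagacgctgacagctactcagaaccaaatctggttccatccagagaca
Hspa1b, chr17:34959189-34959488, minus strand: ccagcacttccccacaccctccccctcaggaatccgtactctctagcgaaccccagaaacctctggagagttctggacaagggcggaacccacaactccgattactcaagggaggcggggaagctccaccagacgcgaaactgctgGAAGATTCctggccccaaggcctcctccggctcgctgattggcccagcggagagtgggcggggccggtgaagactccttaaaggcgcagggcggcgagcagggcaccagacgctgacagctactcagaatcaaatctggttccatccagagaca
Hspb1, chr5:135887669-135887968, plus strand: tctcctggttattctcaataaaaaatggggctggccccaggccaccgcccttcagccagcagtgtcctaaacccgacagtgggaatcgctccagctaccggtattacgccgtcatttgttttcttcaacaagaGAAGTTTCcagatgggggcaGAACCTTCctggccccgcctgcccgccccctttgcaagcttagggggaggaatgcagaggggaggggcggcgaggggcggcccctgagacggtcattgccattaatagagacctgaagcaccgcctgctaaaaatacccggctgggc
Hspb8, chr5:116422815-116423114, minus strand: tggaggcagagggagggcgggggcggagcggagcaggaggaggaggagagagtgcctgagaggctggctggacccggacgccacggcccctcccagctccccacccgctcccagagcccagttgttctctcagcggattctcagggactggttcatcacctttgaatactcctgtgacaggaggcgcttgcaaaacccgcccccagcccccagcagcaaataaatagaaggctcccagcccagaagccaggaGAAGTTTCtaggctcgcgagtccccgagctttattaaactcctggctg
Hspe1, chr1:55087898-55088197, plus strand: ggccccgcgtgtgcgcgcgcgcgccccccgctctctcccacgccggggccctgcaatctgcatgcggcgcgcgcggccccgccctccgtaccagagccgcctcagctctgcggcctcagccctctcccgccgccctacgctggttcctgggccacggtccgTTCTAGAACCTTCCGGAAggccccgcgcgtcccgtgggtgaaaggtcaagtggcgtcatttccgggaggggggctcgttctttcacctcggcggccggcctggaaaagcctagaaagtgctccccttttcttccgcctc
Hspa5, chr2:34771840-34772139, plus strand: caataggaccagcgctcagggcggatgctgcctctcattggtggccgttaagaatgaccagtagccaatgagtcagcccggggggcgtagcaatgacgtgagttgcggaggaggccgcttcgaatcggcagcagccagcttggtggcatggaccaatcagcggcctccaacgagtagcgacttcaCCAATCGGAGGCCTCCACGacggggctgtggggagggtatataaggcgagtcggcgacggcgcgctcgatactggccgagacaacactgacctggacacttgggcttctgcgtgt
Dnajb11, chr16:22857595-22857894, plus strand: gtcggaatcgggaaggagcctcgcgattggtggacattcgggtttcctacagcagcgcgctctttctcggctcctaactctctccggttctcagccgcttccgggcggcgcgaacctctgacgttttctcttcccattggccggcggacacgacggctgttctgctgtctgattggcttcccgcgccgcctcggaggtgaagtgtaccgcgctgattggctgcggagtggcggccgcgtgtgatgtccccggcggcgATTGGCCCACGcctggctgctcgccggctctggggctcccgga

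Among the 5 classes with enough cells to compare in every tumour (fibroblasts, neutrophils, mononuclear phagocytes, Xist-low cells, and T and NK cells), 7 of 13 cytosolic and 3 of 3 mitochondrial members were highest in Xist-low cells, and 14 of 19 ER members in fibroblasts or phagocytes. The other 6 cytosolic members were highest elsewhere: Hspa1a, Hspa1b, Hspb1, Dnajb1 and the cochaperone Bag3 in fibroblasts, and the Hsp40 gene Dnaja1 in T and NK cells, with Hspa1a and Hspb1 at their lowest in Xist-low cells. Of these 6, only Hspb1 was clear of the next class, and the ranges of the others overlapped. In WT tumours alone, Hspa1a averaged 58.7 CPM in phagocytes and 51.4 CPM in fibroblasts, and Hspa1b 56.8 CPM in fibroblasts and 54.9 CPM in Xist-low cells. Smaller classes are left out of the order, and some stood higher: Dnajc3 averaged 225 CPM and Hspb8 78.2 CPM in B cells, of which a tumour held between 13 and 39. Hspa1a averaged 303 CPM in mural and 274 CPM in endothelial cells. Hspa1b averaged 138 CPM in endothelial, 113 CPM in B and 107 CPM in mural cells. WT tumour 2 held 2 mural and 19 endothelial cells. Levels between classes are a description, since the cells were clustered on these genes among others, and they are plain CPM averaged over the 4 tumours. The 7 cytosolic members highest in Xist-low cells were the constitutive Hsp70 Hspa8, its nucleotide exchange partners Hspa4 and Hsph1, the Hsp90 genes Hsp90aa1 and Hsp90ab1, the small heat shock gene Hspb8, and Hsf1 itself. The 3 mitochondrial members are the mitochondrial Hsp70 Hspa9 and the folding chamber Hspd1 with its lid Hspe1. Of the 10, 9 had a lowest Xist-low tumour above the highest tumour of the next class; Hspb8 did not. Hspd1 averaged 816 CPM there, against 246 CPM in fibroblasts, the next class, and Hsp90ab1 averaged 8863 CPM, against 3015 CPM in fibroblasts. Of 19 ER members, 9 were highest in fibroblasts, 5 in phagocytes, 3 in Xist-low cells and 2 in neutrophils. Of these, Dnajc3 in fibroblasts, and Sdf2l1 and Edem1 in phagocytes, were clear of the next of the 5 classes in every tumour.

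**Figure D1:**
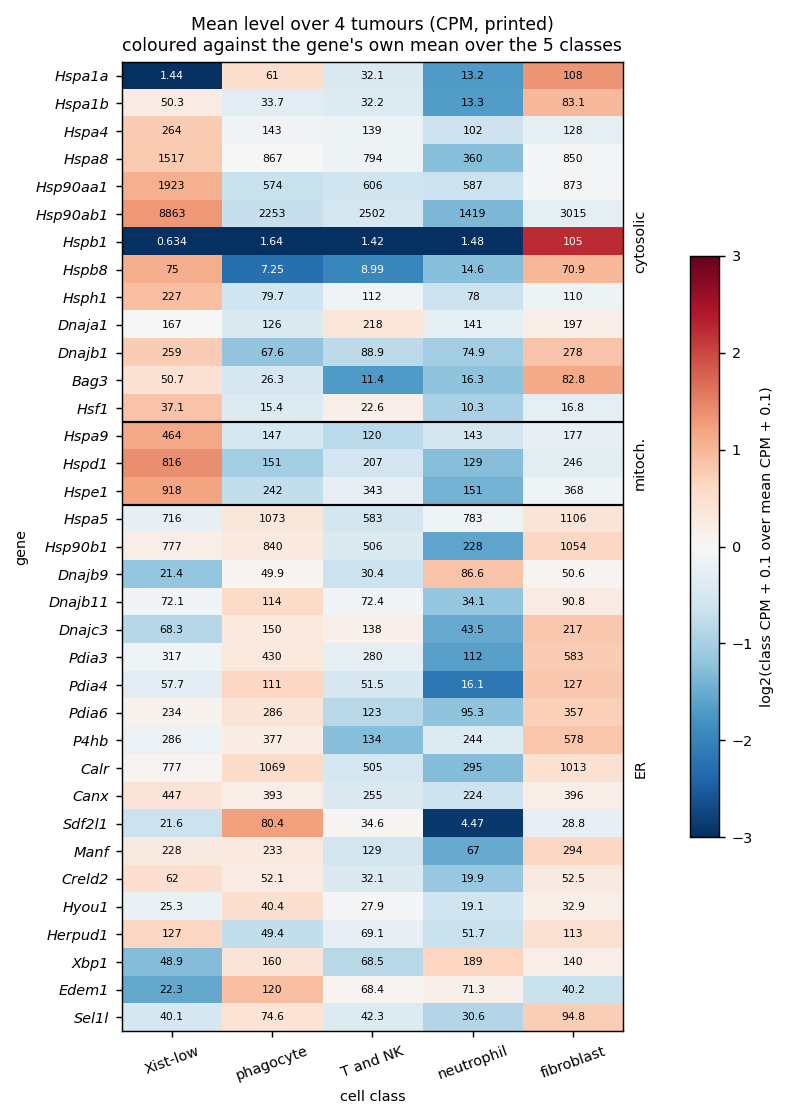
Mean level over the 4 tumours (CPM, printed) of each member in 5 cell classes, coloured by log2 of the level over the gene's own mean. Cytosolic and mitochondrial rows are red on the left in Xist-low cells, with Hspa1a and Hspb1 as blue exceptions, whereas most ER rows are red in phagocytes or fibroblasts and blue in neutrophils.

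Several ER members, chosen after their values were seen, show the range of patterns. Hspa5, the ER Hsp70 BiP, averaged 1106 CPM in fibroblasts and 1073 CPM in phagocytes, with overlapping ranges, and 583 CPM in T and NK cells. The isomerase P4hb, a subunit of the collagen prolyl hydroxylase, averaged 578 CPM in fibroblasts and 134 CPM in T and NK cells. Sdf2l1, a small ER protein bound to BiP complexes, averaged 80.4 CPM in phagocytes, 34.6 CPM in T and NK cells, 28.8 CPM in fibroblasts and 21.6 CPM in Xist-low cells. Xbp1, the factor downstream of IRE1, and Dnajb9, a BiP cofactor and XBP1 target, were highest of the 5 classes in neutrophils, at 189 and 86.6 CPM, and lowest in Xist-low cells, at 48.9 and 21.4 CPM. In B cells, a small class, they averaged 399 and 105 CPM. Neutrophils were the lowest of the 5 classes for 21 of the 35 members.

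Hspa1a and Hspa1b, the inducible Hsp70 genes, differed in where they were found. In Xist-low cells Hspa1a was at 2.60 and 1.45 CPM for KO tumours and at 1.11 and 0.611 CPM for WT tumours, against a mean of 61.0 CPM in phagocytes and 108 CPM in fibroblasts. Hspa1b, by contrast, averaged 50.3 CPM in Xist-low cells, 33.7 CPM in phagocytes and 83.1 CPM in fibroblasts. Both genes averaged higher in the small endothelial and mural classes than in fibroblasts, as given above. In the share of the pair's UMIs that belong to Hspa1a, the library total cancels. A counting bias of either gene does not, so the share is compared between classes. That share was 4.21% and 4.31% in Xist-low cells of KO tumours (exact 95% intervals 3.54 to 4.95% and 3.59 to 5.12%, counting error only) and 1.87% and 1.18% in those of WT tumours (1.56 to 2.22% and 0.896 to 1.51%). In phagocytes of the same tumours it was 63.6% and 71.4% in KO and 56.2% and 67.9% in WT, and in fibroblasts 58.6% and 61.3% in KO and 52.2% and 33.0% in WT. So every Xist-low value lay below every value of phagocytes, T and NK cells and fibroblasts, in all 4 tumours.

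The low Hspa1a share was also seen in each cluster of Xist-low cells. It was highest in cluster 4 of KO tumour 1, at 13.95% of 43 UMIs (exact 95% interval 5.30 to 27.9%), and next highest in cluster 17 of WT tumour 2, at 7.96% of 113 UMIs (3.71 to 14.6%). In cluster 0 it was 4.04% and 4.615% in KO tumours and 2.64% and 1.80% in WT tumours. The windows printed above for the genes are 98.7% identical, differing at 4 of 300 positions, and both hold the same heat shock pair. Their coding parts are 99.4% identical and their 3′ untranslated parts 47.3% identical, by global alignment of GENCODE vM21 transcripts. The gene pair lies on chromosome 17, Hspa1b at 34956436-34959238 and Hspa1a at 34969190-34972156 (GRCm38, minus strand). The labels do not say how reads that match both copies were counted, so the split between them is uncertain in level, although the same counting was applied to every class. The phagocyte marker list, 10 genes, gave a sum, in Xist-low cells, of 253 and 209 CPM for KO tumours and 186 and 76.0 CPM for WT tumours, so RNA of host cells moved with the Hspa1a level there; its part in that level was not tested.

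Hspb1, the small heat shock gene encoding Hsp27 (Hsp25 in the mouse), was highest in fibroblasts among the 5 classes. It was at 123 and 220 CPM in fibroblasts of KO tumours and 54.9 and 22.4 CPM in those of WT tumours, and its mean was 1.64 CPM or less in each of the other 4. In smaller classes its mean was higher still, at 339 CPM in mural, 329 CPM in endothelial and 312 CPM in B cells, with 1 tumour at 0 UMIs in mural and in B cells. In Xist-low cells thinned to 1000 UMIs, the cells with an Hspb1 UMI were 0.227% and 0.0780% in KO and 0.215% and 0% in WT (0 of 6803 cells, exact upper 95% limit 0.0542%). In phagocytes it was 0.207% and 0% in KO (0 of 2296 cells, exact upper 95% limit 0.160%) and 0.0811% and 0.0798% in WT, and in fibroblasts 7.16% and 14.1% in KO and 5.56% and 1.98% in WT. Without thinning, the Xist-low share was 3.65% and 2.21% in KO and 0.605% and 0.127% in WT. Whether the thinned shares in Xist-low cells and phagocytes are low expression or background was not tested.

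**Figure D2:**
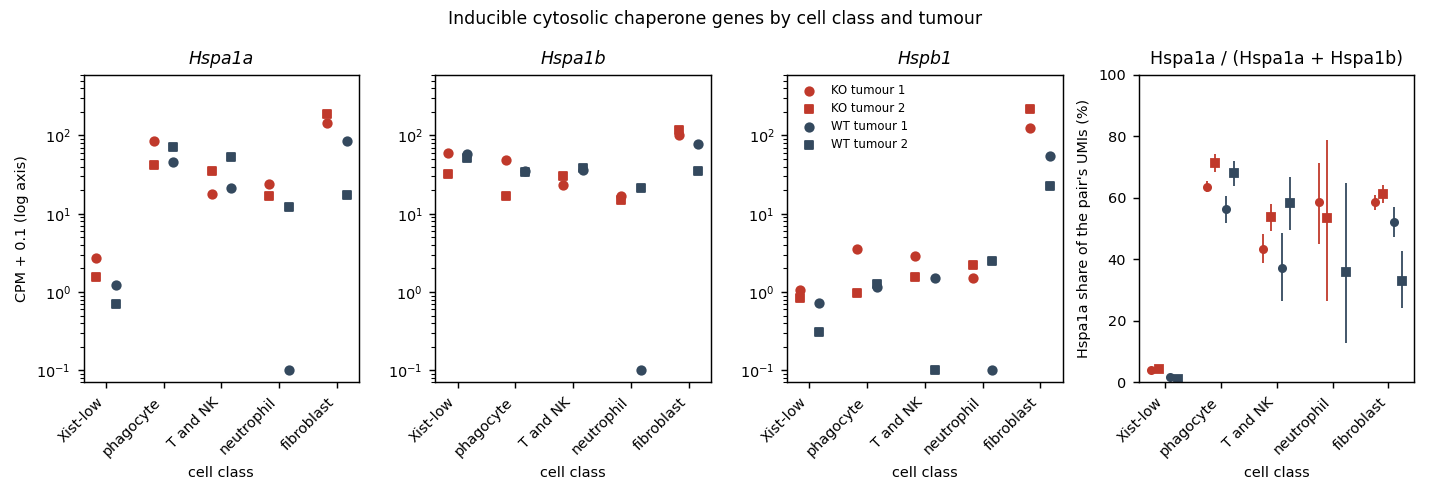
Left 3 panels, level (CPM + 0.1, log axis) of Hspa1a, Hspa1b and Hspb1 in each tumour and class, with points at 0.1 for tumours with 0 UMIs; right panel, the Hspa1a share of the pair's UMIs with exact 95% intervals for counting error. Hspa1a is near the floor in Xist-low cells while Hspa1b is not, and Hspb1 is far higher in fibroblasts than in the other classes plotted.

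In Xist-low cells, KO against WT, 5 of 35 members were higher in KO tumours and 0 lower (edgeR quasi-likelihood test, adjusted p under 0.05 over all 18002 genes tested in the class). Over all genes tested, 8.82% were called, 4.50% higher and 4.32% lower. The 5 were Hspa8, Hspb8, Dnajb11, Sdf2l1 and Manf. Over the members, 31 of 35 had a positive log2 fold change, and the median was 0.19 against -0.01 over all genes tested. For 22 members both KO values lay above both WT values and for 2 below, which occurs for 29.7% and 30.6% of all genes tested. Members by compartment were 12 of 13, 3 of 3 and 16 of 19 positive for cytosolic, mitochondrial and ER members.

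Hspa8, the constitutive cytosolic Hsp70 Hsc70, was at 1812 and 1919 CPM in KO and 1138 and 1172 CPM in WT (log2 fold change 0.69, SE 0.15, adjusted p = 0.0391, edgeR). Hspb8, a small heat shock protein that works with Bag3 in removing misfolded proteins, was at 83.8 and 90.2 CPM in KO and 63.1 and 61.9 CPM in WT (0.48, SE 0.10, edgeR adjusted p = 0.0394). Both KO tumours lay above both WT tumours for either gene. The other 3 called members are ER proteins. Dnajb11, an ER J protein that brings substrates to BiP, was at 83.0 and 84.4 CPM in KO and 58.8 and 61.2 CPM in WT (0.48, SE 0.10, edgeR adjusted p = 0.0371). Sdf2l1 was at 24.9 and 25.02 CPM in KO and 18.2 and 17.8 CPM in WT (0.47, SE 0.10, edgeR adjusted p = 0.0422). Manf, a secreted ER-resident factor released under ER stress, was at 261 and 271 CPM in KO and 185 and 194 CPM in WT (0.49, SE 0.11, edgeR adjusted p = 0.0473). The KO and WT values did not overlap for any of these genes.

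**Figure D3:**
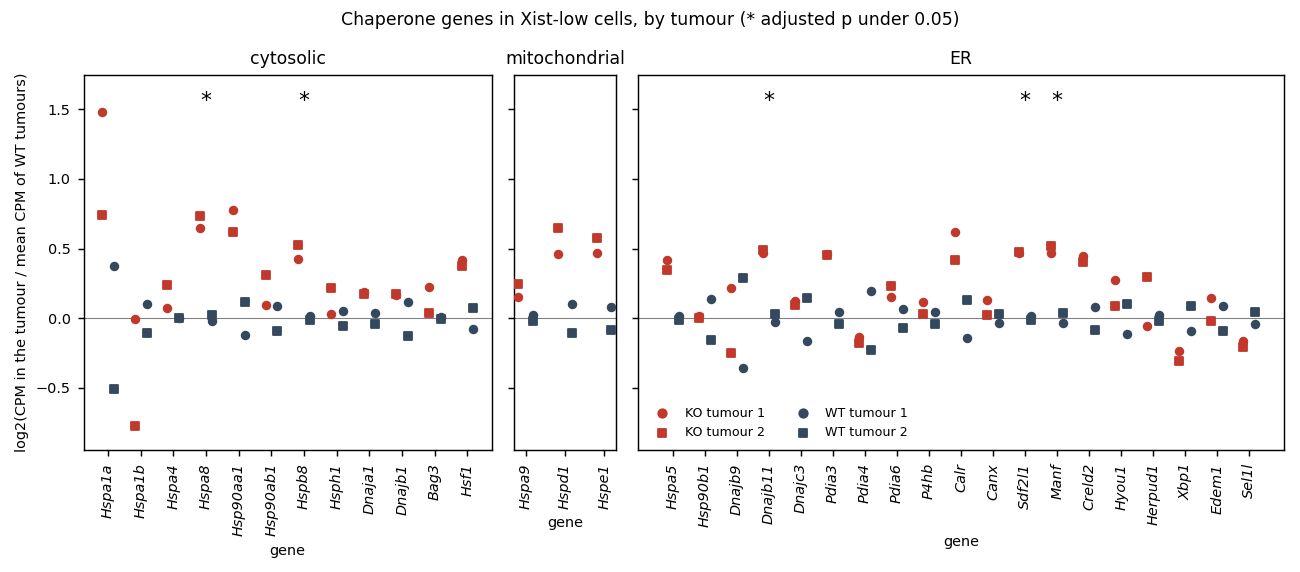
Level of each member in Xist-low cells of each tumour relative to the mean of the 2 WT tumours (log2, CPM after TMM), by compartment; asterisks mark the 5 members with edgeR adjusted p under 0.05. KO points (red, left of each pair) lie above the WT points for most members, and Hspb1, whose mean is under 1 CPM, is left out.

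A further 9 members had adjusted p-values between 0.05 and 0.113 with both KO values above both WT values, so the 5 do not stand apart from them. Hsp90aa1, the stress-inducible Hsp90, was at 2495 and 2239 CPM in KO and 1336 and 1573 CPM in WT (0.70, SE 0.17, edgeR adjusted p = 0.0504). Creld2, an ER stress-induced protein (0.43, edgeR adjusted p = 0.0549), the ERp57 isomerase Pdia3 (0.46, edgeR adjusted p = 0.0600) and Hsf1 (0.40, edgeR adjusted p = 0.0641) had both KO values above both WT values. Hspd1 was at 907 and 1032 CPM in KO and 705 and 612 CPM in WT (0.56, SE 0.15, edgeR adjusted p = 0.0678), and Hspe1 at 1039 and 1122 CPM in KO and 794 and 708 CPM in WT (0.52, SE 0.15, edgeR adjusted p = 0.0697). The lectin chaperone Calr was at 974 and 847 CPM in KO and 577 and 694 CPM in WT (0.52, SE 0.16, edgeR adjusted p = 0.0876). Hspa5 was at 828 and 787 CPM in KO and 625 and 614 CPM in WT (0.38, SE 0.13, edgeR adjusted p = 0.112), and the inducible Hspa1a at 2.46 and 1.47 CPM in KO and 1.14 and 0.620 CPM in WT (1.14, SE 0.39, edgeR adjusted p = 0.112).

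Not every ER or heat shock gene followed. Hsp90b1, the ER Hsp90 Grp94, was at 784 and 775 CPM in KO and 854 and 695 CPM in WT (0.01, SE 0.15, edgeR adjusted p = 0.976). Herpud1, a component of ER-associated degradation, was at 117 and 149 CPM in KO and 123 and 120 CPM in WT (0.13, SE 0.14, edgeR adjusted p = 0.571). Xbp1 was at 45.5 and 43.3 CPM in KO and 50.1 and 56.9 CPM in WT (-0.27, SE 0.11, edgeR adjusted p = 0.161), and Sel1l, the degradation scaffold, at 38.1 and 37.0 CPM in KO and 41.4 and 44.0 CPM in WT. Of the inducible cytosolic genes, Hspa1b was at 55.9 and 32.7 CPM in KO and 60.0 and 52.1 CPM in WT, overlapping, and Hsph1 at 222 and 253 CPM in KO and 225 and 210 CPM in WT, overlapping. Pdia4, a disulfide isomerase, overlapped as well, at 55.3 and 53.8 CPM in KO and 69.8 and 52.1 CPM in WT.

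The dissociation list was higher in Xist-low cells of KO tumours as well, at a summed 8772 and 8799 CPM in KO and 7107 and 6147 CPM in WT. Of its 24 genes, 4 rose in KO (Ier5, Fosl2, Socs3 and Rhob) and 0 fell, against 4.50% and 4.32% of all genes. It had 18 positive and 6 negative log2 fold changes, the lowest -0.91, and a median of 0.30, against 0.19 over the members. At an unadjusted edgeR p under 0.05 there were 15 of its 24 genes and 15 of the 35 members, against 29.6% of all genes. Its members did not move as one: Jun was at 1899 and 1987 CPM in KO and 1330 and 958 CPM in WT, whereas Fos was at 155 and 158 CPM in KO and 355 and 210 CPM in WT, and Ier2 at 369 and 326 CPM in KO and 501 and 436 CPM in WT. Among the cells of each tumour whose share of the list was at or below the tumour's median, the list summed to 5741 and 5876 CPM in KO and 4304 and 3082 CPM in WT, and log2 fold changes of the 5 called members were 0.62 for Hspa8, 0.43 for Hspb8, 0.40 for Dnajb11, 0.47 for Sdf2l1 and 0.46 for Manf, none past the threshold; 0.647% of all genes were called there. In cells of cluster 0 alone, which every tumour holds, Hspa8 was at 1939 and 1892 CPM in KO and 1298 and 1407 CPM in WT, and 0 members were called, with 1.38% of all genes called. The log2 fold changes within cluster 0 were 0.46 for Hspa8, 0.45 for Hspb8, 0.35 for Dnajb11, 0.20 for Sdf2l1 and 0.21 for Manf, all below those of the whole class. The calls changed with the tumours in the fit. The log2 fold change of Hspa8 was 0.74 without KO tumour 1 and 0.65 without KO tumour 2. Fits without 1 tumour leave 1 tumour in a group, so their calls are given only as a range further below, with the share of all genes. DESeq2 called 13 members, all higher in KO, with 15.1% of all genes called.

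Calls among other chaperone genes, not members, were few in Xist-low cells, against 4.50% of all genes called higher and 4.32% lower. Of 29 other HSF1-linked and cytosolic chaperone genes, 2 rose and 1 fell. Ahsa1, an Hsp90 activator, was at 121 and 116 CPM in KO and 76.9 and 81.3 CPM in WT (0.58, SE 0.10, edgeR adjusted p = 0.0289), Cryab, a small heat shock protein, at 162 and 182 CPM in KO and 107 and 122 CPM in WT (0.59, SE 0.13, edgeR adjusted p = 0.0394), and Hspa2 at 13.8 and 14.1 CPM in KO and 20.7 and 20.1 CPM in WT (-0.55, SE 0.11, edgeR adjusted p = 0.0348). The fourth by p, the chaperonin subunit Cct3, was not past the threshold (0.54, edgeR adjusted p = 0.0572). Of 46 tested genes of the ER folding, unfolded protein response and degradation list, 0 rose and 2 fell: the ER oxidase Ero1l, at 44.4 and 38.3 CPM in KO and 62.1 and 58.7 CPM in WT (-0.55, SE 0.11, edgeR adjusted p = 0.0382), and the ER stress sensor Creb3l2, at 27.1 and 25.1 CPM in KO and 38.2 and 35.5 CPM in WT (-0.50, SE 0.11, edgeR adjusted p = 0.0394). Ppp1r15a (0.52, edgeR adjusted p = 0.0523) and the oligosaccharyltransferase subunit Rpn2 (0.42, edgeR adjusted p = 0.0613) were next; Ppp1r15a, a phosphatase subunit that restores translation after stress, is also on the dissociation list. Of 10 other mitochondrial genes 0 were called, with the Hsp90 Trap1 at 67.5 and 69.6 CPM in KO and 53.8 and 47.8 CPM in WT (0.43, edgeR adjusted p = 0.0542).

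In the host classes 0 members were called except in NK cells. No member passed the threshold in mononuclear phagocytes (0% of 13289 genes called), fibroblasts (0% of 11537), neutrophils (0.128% of 4673) or T and NK cells (1.77% of 12282); at an unadjusted p under 0.05 there were 4 of 35, 8 of 35, 5 of 25 and 8 of 34 members (11.4%, 22.9%, 20% and 23.5%), against 18.5%, 13.4%, 14.6% and 20.7% of all genes. By direction, 1.01% of genes were called higher and 0.765% lower in T and NK cells, and 0.0428% and 0.0856% in neutrophils. Both KO values lay above both WT values for 9 phagocyte members and below for 7, against 26.3% and 23.9% of all genes, and for 3 and 12 of 25 neutrophil members, against 26.1% and 24.2%. In NK cells, 1 of 31 tested members fell, with 7.24% of 6907 genes called, 3.85% higher and 3.39% lower: Hspe1 was at 222 and 271 CPM in KO and 413 and 471 CPM in WT (-0.84, SE 0.19, edgeR adjusted p = 0.0145), with no overlap. A share of 1 in 31 is near that of all genes called lower. Most NK cells of WT tumour 1 lay in another cluster than those of the other tumours, counted before doublets were removed: 148 were in a cluster led by Rbp2, Scd1 and Nfib, and 7 in the cluster that held 247 and 292 cells of the KO tumours and 84 of WT tumour 2. The estimated free-RNA share of NK cells was 7.98% and 6.64% in KO and 21.2% and 8.65% in WT; with it subtracted, the log2 fold change of Hspe1 was -0.90 (edgeR adjusted p = 0.00814). The part of the cluster make-up in this value was not tested. Of the NK members, 1 had both KO values above both WT values and 15 below, against 26.7% and 26.4% of all genes. The Hspe1 call was lost without KO tumour 1 (-0.67, adjusted p = 0.269), without KO tumour 2 (-0.95, adjusted p = 0.0714) and with DESeq2 (-0.84, adjusted p = 0.0804). Hspd1, whose gene lies head to head with Hspe1 on chromosome 1 (Hspd1 at 55077835-55088243 on the minus strand, Hspe1 at 55088132-55091307 on the plus strand, overlapping at their starts, GRCm38), was at 127 and 160 CPM in NK cells of KO tumours and 296 and 163 CPM in those of WT tumours (-0.75, SE 0.24, edgeR adjusted p = 0.0700). The Hspe1 window printed above covers part of this overlap and ends before the Hspd1 start at 55088243. It also overlaps a second RefSeq window of Hspd1, at 55087883-55088182, which holds the Hspd1 heat shock pairs. Those pairs are the same stretch of DNA as the Hspe1 pairs, read on the other strand.

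The mitochondrial members were lower in KO than in WT tumours in T and NK cells as a class, but not past the threshold. Hspa9 was at 93.8 and 99.2 CPM in KO and 147 and 146 CPM in WT (-0.60, edgeR adjusted p = 0.0774), Hspd1 at 137 and 180 CPM in KO and 296 and 219 CPM in WT (-0.70, edgeR adjusted p = 0.115) and Hspe1 at 238 and 331 CPM in KO and 423 and 391.5 CPM in WT (-0.52, edgeR adjusted p = 0.182). All 3 had both KO values below both WT values, as did all 3 in neutrophils and fibroblasts. Over the members tested in T and NK cells, 26 of 34 were negative with both KO values above both WT values for 2 and below for 15, against 27.6% and 25.4% of all genes. Without WT tumour 2, which left the WT tumour with the higher estimated free-RNA share (20.01% of UMIs, against 9.58% in WT tumour 2), 8 members were called, with 16.2% of all genes called, among them Hspd1 (-0.89, edgeR adjusted p = 0.000375). The mitochondrial members are highest in Xist-low cells, and RNA of Xist-low markers in other classes moved with the groups. The source of that RNA was not tested. In T and NK cells the Xist-low marker list, 10 genes, summed to 98.1 and 135 CPM for KO tumours. For WT tumours the list summed to 522 and 198 CPM. In neutrophils it summed to 180 and 181 CPM in KO and 641 and 332 CPM in WT, with an estimated free-RNA share of 28.2% in WT tumour 1. With an estimated free-RNA share subtracted, the log2 fold changes in T and NK cells were -0.42 for Hspa9, -0.71 for Hspd1 and -0.54 for Hspe1, and in NK cells Hspe1 was -0.90 (edgeR adjusted p = 0.00814).

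Fibroblasts held the largest fold changes of any member in the classes tested, and none was past the threshold. Hspb1 was at 125 and 232 CPM in KO and 54.3 and 21.6 CPM in WT (2.22, SE 0.55, edgeR adjusted p = 0.257), Hspa1a at 146 and 196 CPM in KO and 84.4 and 16.9 CPM in WT (1.74, SE 0.73, edgeR adjusted p = 0.3917), and Dnajb1, the inducible Hsp40, at 489 and 322 CPM in KO and 172 and 146 CPM in WT (1.35, SE 0.30, edgeR adjusted p = 0.228). Both KO tumours lay above both WT tumours for each. Bag3, the Hsp70 cochaperone, was at 124 and 95.7 CPM in KO and 56.9 and 59.1 CPM in WT (0.92, SE 0.23, edgeR adjusted p = 0.256). In the ER group, Hspa5 was at 1363 and 1389 CPM in KO and 916 and 813 CPM in WT (0.67, SE 0.26, edgeR adjusted p = 0.372) and Calr at 1175 and 1378 CPM in KO and 812 and 745 CPM in WT (0.71, SE 0.26, edgeR adjusted p = 0.360). In all, 28 of 35 members had a positive fold change, with a median of 0.43 against 0.01 over all genes tested; Hsp90ab1, at 2222 and 2788 CPM in KO and 3861 and 3219 CPM in WT, went the other way. For 21 members both KO values lay above both WT values and for 5 below, against 23.2% and 23.5% of all genes.

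In the same fibroblasts the dissociation list summed to 15530 and 13700 CPM in KO and 9241 and 6323 CPM in WT, and Egr1 alone to 1418 and 1307 CPM in KO and 810 and 488 CPM in WT. Both groups of numbers move together, and the part of dissociation in the fibroblast values was not tested. In the fibroblasts whose share was at or below the tumour's median, the list still summed to 8764 and 9484 CPM in KO and 5976 and 2644 CPM in WT, and the log2 fold changes were 2.33 for Hspb1, 1.54 for Hspa1a, 0.86 for Dnajb1 and 0.70 for Bag3. The Xist-low marker list in fibroblasts summed to 213 and 367 CPM in KO and 938 and 853 CPM in WT, and the fibroblast marker list to 84630 and 61710 CPM in KO and 37340 and 45250 CPM in WT. WT tumour 2 gave the lowest Hspb1, Hspa1a and Egr1 values. Without it the log2 fold changes were 1.68 for Hspb1 and 0.99 for Hspa1a. The cluster make-up of fibroblasts differed between tumours, counted before doublets were removed. A cluster led by Tnn, Grem1 and Tmem132e held 128 and 274 cells in KO and 234 and 103 in WT. One led by Gm16485, Heph and Col6a6 held 338 and 72 in KO and 43 and 228 in WT. The part of this make-up in the fibroblast values was not tested. DESeq2 called Hspb1 and Dnajb1, with 1.58% of all genes called.

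**Figure D4:**
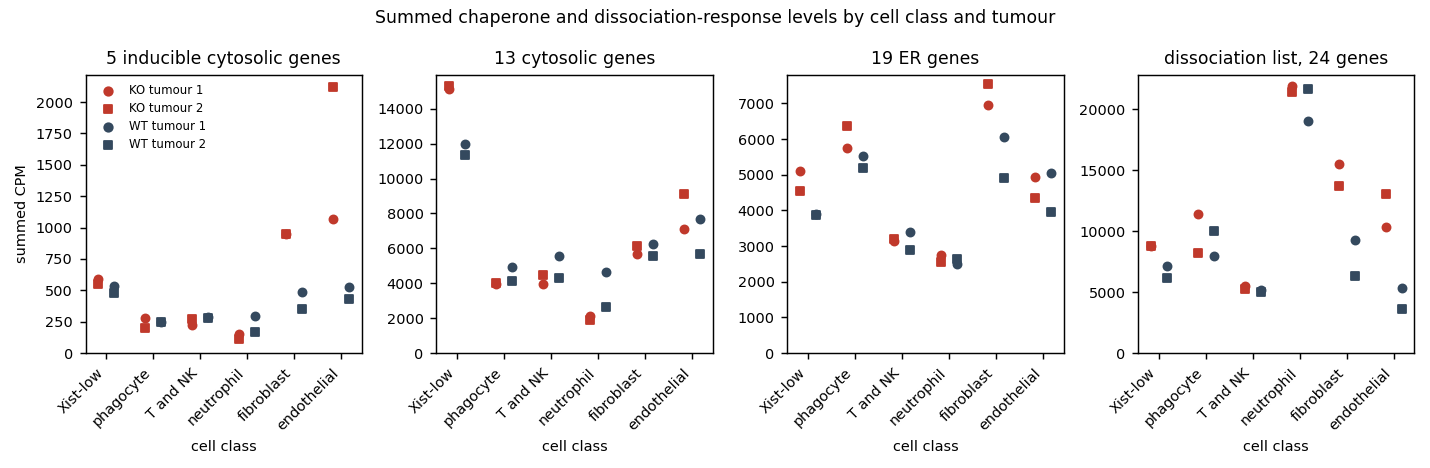
Summed CPM of the 5 inducible cytosolic genes (Hspa1a, Hspa1b, Dnajb1, Hspb1, Hsph1), all 13 cytosolic members, all 19 ER members and the 24 dissociation genes, by cell class and tumour. In fibroblasts and endothelial cells the inducible genes and the dissociation list are both higher in the KO tumours, whereas the 13 cytosolic genes together are highest in Xist-low cells.

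In phagocytes 17 of 35 members had a negative log2 fold change, and Herpud1 and Hspb8 had the lowest adjusted p-values. The cluster make-up of phagocytes differed between groups, counted before doublets were removed: a cluster led by Ly6i, Nos2 and Dpys held 1909 and 1367 cells in KO and 321 and 490 in WT, and one led by Ch25h, Ccl24 and Ccl12 held 126 and 444 in KO and 734 and 361 in WT. Herpud1 was at 31.3 and 34.7 CPM in KO and 75.7 and 54.7 CPM in WT (-0.99, SE 0.21, edgeR adjusted p = 0.0995), and Hspb8 at 4.89 and 4.68 CPM in KO and 10.2 and 9.09 CPM in WT (-1.01, SE 0.24, edgeR adjusted p = 0.123). For both, the KO tumours lay below the WT tumours without overlap. KO values were also below WT values for Herpud1 in fibroblasts, at 96.4 and 93.0 CPM in KO and 145 and 119 CPM in WT (-0.48, edgeR adjusted p = 0.418), and for Hspb8 in T and NK cells, at 4.72 and 3.98 CPM in KO and 19.9 and 7.03 CPM in WT (-1.64, edgeR adjusted p = 0.107). Herpud1 was called with DESeq2 (3.90% of all genes called), and both were called without WT tumour 2 (15.5% of all genes called), at -1.19 for Herpud1 and -1.08 for Hspb8. Calr was at 1195 and 1389 CPM in KO and 853 and 869 CPM in WT (0.59, SE 0.22, edgeR adjusted p = 0.231), and Edem1, an ER degradation lectin, at 147 and 136 CPM in KO and 94.0 and 106 CPM in WT (0.50, SE 0.17, edgeR adjusted p = 0.201). Xist-low markers in phagocytes summed to 81.4 and 102 CPM in KO and 354 and 170 CPM in WT, and Hspb8 is among the genes high in Xist-low cells; with free RNA subtracted, the log2 fold change of Hspb8 was -1.24 and that of Herpud1 -1.09.

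The difference between the KO effect in Xist-low cells and that in phagocytes was tested directly, in a model over both classes with the tumour as a block. It passed the threshold for 3 of 35 members, with 4.22% of 17515 genes called. In both classes the cluster make-up differed between KO and WT tumours, as given above, and its part in these differences was not tested. Hspb8 differed by 1.49 (log2, SE 0.22, edgeR adjusted p = 0.0137), from fold changes of 0.48 in Xist-low cells and -1.01 in phagocytes. Herpud1 differed by 1.10 (SE 0.22, edgeR adjusted p = 0.0320), from 0.13 in Xist-low cells and -0.99 in phagocytes, and Hspd1 by 1.01 (SE 0.23, edgeR adjusted p = 0.0401). Hspa8 differed by 0.82 (SE 0.22, edgeR adjusted p = 0.0719). With free RNA subtracted, 0 members passed the threshold, with values of 1.64, 1.15 and 0.90 for Hspb8, Herpud1 and Hspd1. The share of all genes called in that fit was not taken. Without WT tumour 1 the values were 1.32, 0.79 and 0.74.

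**Figure D5:**
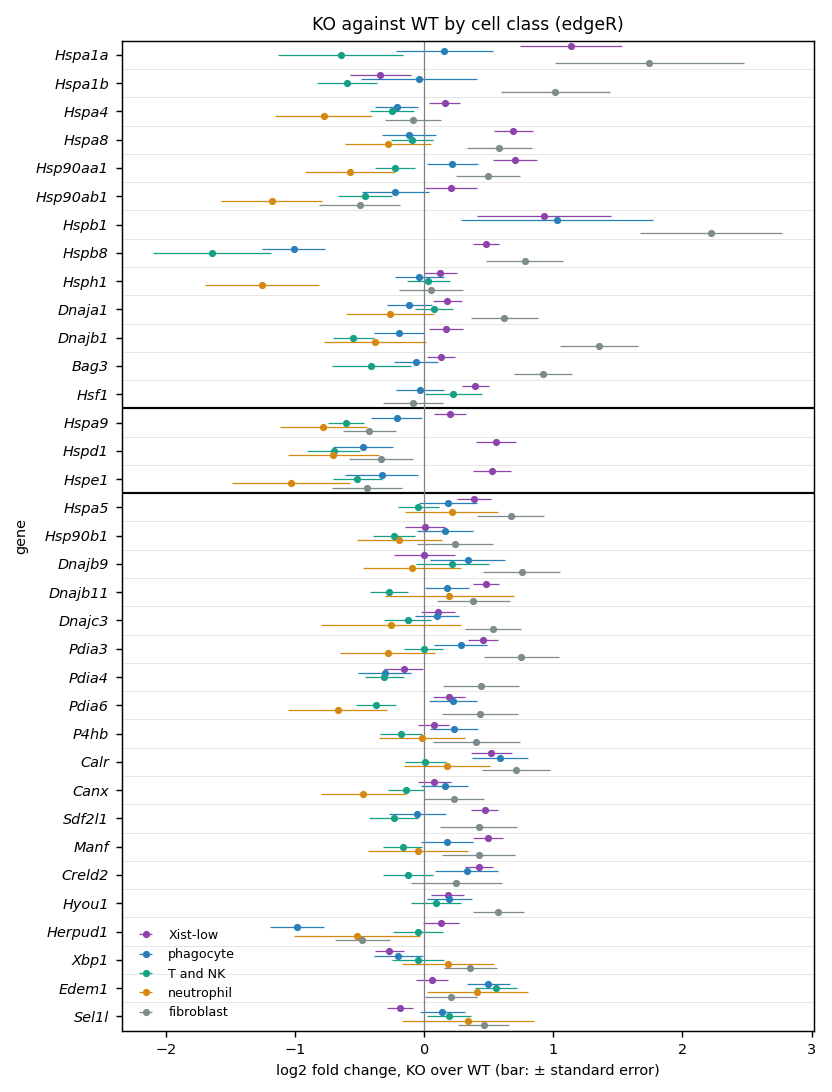
Log2 fold change, KO over WT, of each tested member in 5 cell classes, with standard error bars from edgeR. Members in Xist-low cells cluster a little right of 0, mitochondrial members lie left of 0 in the host classes, and the fibroblast points for Hspb1, Hspa1a and Dnajb1 lie farthest right.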

How the data were processed

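The 4 libraries were deposited as whole-number UMI counts per gene and barcode. Per the labels' protocols the authors used Cell Ranger 5.0.1 on mm10, but the file headers name version 6.1.2. Seurat 5.1.0 is named in the submitters' processing notes. Minimums of 300 genes and 500 UMIs, and a maximum of 20% mitochondrial UMIs, were set per barcode, and the barcodes with the highest Scrublet scores were removed at 0.8% per 1000 barcodes. Scrublet's own threshold marked 0% in both WT libraries, so a fixed rate was used. Cells were clustered with scanpy 1.11.5 and leidenalg 0.10.2, and clusters were named from marker lists. Summed counts of each class in each tumour were tested with edgeR 4.0.16 (R 4.3.3; TMM, filterByExpr, quasi-likelihood), KO against WT, with Benjamini-Hochberg adjustment over all genes; the scripts were tested on simulated data. DESeq2 1.42.0, other filters, thinning, free-RNA subtraction, leaving out each tumour and a replicate block were alternatives. A permutation test over 2 against 2 tumours cannot go below 0.333. Members and lists were chosen with earlier results of these data known. Genes named from the other chaperone and dissociation lists were among the 4 with the smallest p in Xist-low cells in each list. Jun, Fos, Ier2 and Egr1 of the dissociation list were named outside that rule.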

Additional observations from a re-analysis of the deposited data

Results flagged for a closer look

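The KO effect differed between Xist-low cells and mononuclear phagocytes, by the test of the difference itself, for 3 members, with 4.22% of all genes called. The difference, Xist-low minus phagocyte on the log2 scale, was 1.489 for Hspb8, 1.096 for Herpud1 and 1.013 for Hspd1. Xist-low marker RNA in phagocytes moved with the groups, at 81.4 and 102 CPM in KO tumours and 354 and 170 CPM in WT tumours. Its part in these differences was not tested beyond the subtraction of free RNA. After that subtraction 0 members passed the threshold, and the share of all genes called was not taken.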

How the results depend on the processing

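The share of all genes called, where it was taken, stands in brackets after each count of members called. With levels averaged over cells or with free RNA subtracted, 13 members were again highest in Xist-low cells and 14 in fibroblasts. Of 5 members called in Xist-low cells (8.82%), DESeq2 gave 13 (15.1%), no TMM 10 (7.94%), no low-count filter 13 (12.6%), cells of lower dissociation share 0 (0.647%), and leaving out 1 tumour 0 to 5 (2.13% to 13.5%). Added after seeing the data, cluster 0 alone gave 0 (1.38%), cluster 4 alone 3 (7.87%), cluster 17 alone 0 (3.61%) and all clusters but the shallow cluster 4 gave 3 (8.10%). In phagocytes, with 0 (0%), DESeq2 gave 1 (3.90%), no filter 2 (6.51%), doublets kept 2 (6.5%) and leaving out 1 tumour 0 to 4 (up to 15.5%). In T and NK cells, with 0 (1.77%), no filter gave 3 (5.89%), doublets kept 1 (5.21%), thinning 1 (3.45%) and leaving out 1 tumour 0 to 8 (up to 16.2%). Neutrophils gave 0 to 2 (up to 1.58%) on leaving out 1 tumour. In fibroblasts, with 0 (0%), DESeq2 gave 2 (1.58%) and no filter 4 (3.74%). In NK cells, with 1 (7.24%), DESeq2 gave 0 (1.55%), no filter 2 (3.95%), doublets kept 2 (9.40%), thinning 0 (1.84%), cells of lower dissociation share 2 (3.86%) and leaving out 1 tumour 0 to 5 (up to 11.4%). For the difference between classes, with 3 (4.22%), no tumour block gave 1 and free RNA subtracted 0. The share of all genes was not taken for these alternatives, so their counts cannot be set against it.

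Reversed log2 fold changes in Xist-low cells were Hspa1b in cluster 0 (0.0054) and cluster 4 (0.070), Hspb1 with free RNA subtracted (-1.28), Hsph1 in cluster 4 (-0.16), Xbp1 in cluster 4 (0.22), Herpud1 without KO tumour 2 (-0.054; 0.302 without KO tumour 1), and Hsp90b1 with no filter (-0.023), over the fits without 1 tumour (from -0.136 to 0.166), in cells of lower dissociation share (-0.028) and in cluster 17 (-0.28). The cause was not tested.

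Whether the tumour numbers pair the samples is not stated in the labels. Same-numbered tumours had correlations of deviations from the group mean between -0.596 and 0.0244. With 2 tumours a group, the deviations within a group mirror each other, so these values cannot settle a pairing. With the replicate block, 1 member was called in Xist-low cells (7.59%), 2 in T and NK cells (6.16%) and 2 in NK cells (8.76%). A crossed pairing, added after seeing the data, gave 13 in Xist-low cells (21.7%), 4 in phagocytes (17.9%), 1 in T and NK cells (2.74%), 7 in fibroblasts (7.46%) and 0 in NK cells (0%). It set KO tumour 1 with WT tumour 2, and KO tumour 2 with WT tumour 1. These are the tumours with the more similar fibroblast cluster make-up, and the part of that make-up was not tested. With 2 tumours a group and, in neutrophils, 50 cells in WT tumour 1, small differences were not detectable at this depth.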
